A study of Mus musculus with 28 samples.

Results

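Nuclei that carried Cas9 after injection of the miR-124 g4 vector were compared with nuclei of the same tissue that did not. The comparison used 14 of the 28 samples of the series, chosen by their labels: 7 libraries of HA-positive nuclei, which the labels mark as Cas9-positive, and 7 libraries of HA-negative nuclei. HA is a short peptide tag that an antibody detects, which lets a sorter separate tagged from untagged nuclei. The animals were 7 mice, numbered 17 to 23 in the titles, each with an adeno-associated virus (AAV) vector called AAV-Cas9-miR-124-g4 in the motor cortex of the right hemisphere and one ending in empty in the left. Each animal gave 1 library of each kind from its right hemisphere, so both groups shared the vector, the side and the animals, and differed in the HA stain of the nuclei. Tissue was fixed with formaldehyde, nuclei were stained with Hoechst and with an Alexa-647 antibody against HA, and sequencing libraries were built from picograms of RNA. Neither the strain, age or sex of the animals, the promoter that drives Cas9, nor what g4 stands for is given in the sources used here. HA-positive is therefore a label of the sort, not of a cell type, and HA-negative nuclei are all others, glia included.

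The motor cortex holds excitatory projection neurons arranged in layers, inhibitory interneurons, and glia. Interneurons make the transmitter GABA and fall into classes named for parvalbumin, somatostatin and vasoactive intestinal peptide. Oligodendrocytes wrap axons in myelin, their precursors divide and mature into them, microglia are the resident immune cells, and astrocytes take up glutamate and potassium. The striatum lies below the cortex and its main cells are GABA-producing projection neurons that respond to dopamine. miR-124 is a microRNA abundant in neurons, cut from hairpins in longer noncoding host transcripts. In libraries of pooled nuclei, fewer nuclei of a type and less RNA per nucleus of that type cannot be told apart, and this holds for every difference below.

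The 14 libraries held 310408 to 902944 counts and 9282 to 13668 detected genes, and ribosomal RNA took 17.0 to 40.4% of counts. The number of detected genes (exact permutation test, p 0.368) and the share of ribosomal RNA (exact permutation test, p 0.71) differed between fractions by less than the spread between animals. Y-linked transcripts were found in the libraries of animals 17 to 20, and Xist in those of animals 21 to 23. Xist is the RNA that coats the silenced X chromosome of females. The HA-positive library of animal 19 stood apart and went against this pattern. It held 620 CPM (the usual depth-normalized count, scaled by edgeR's normalization factors) of Xist beside 46.2 CPM of Y-linked genes, while the HA-negative library of the same animal held 0 CPM of Xist and 170 CPM of Y-linked genes. It was also the 1 HA-positive library with high levels of oligodendrocyte and microglia markers. The summed level of 24 oligodendrocyte markers was 2214 CPM there against 281 to 540 CPM in the other 6 HA-positive libraries, and that of 24 microglia markers was 597 CPM against 5.6 to 86.5. All results below are given with this library, and without it where it moved them.

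**Figure D1:**
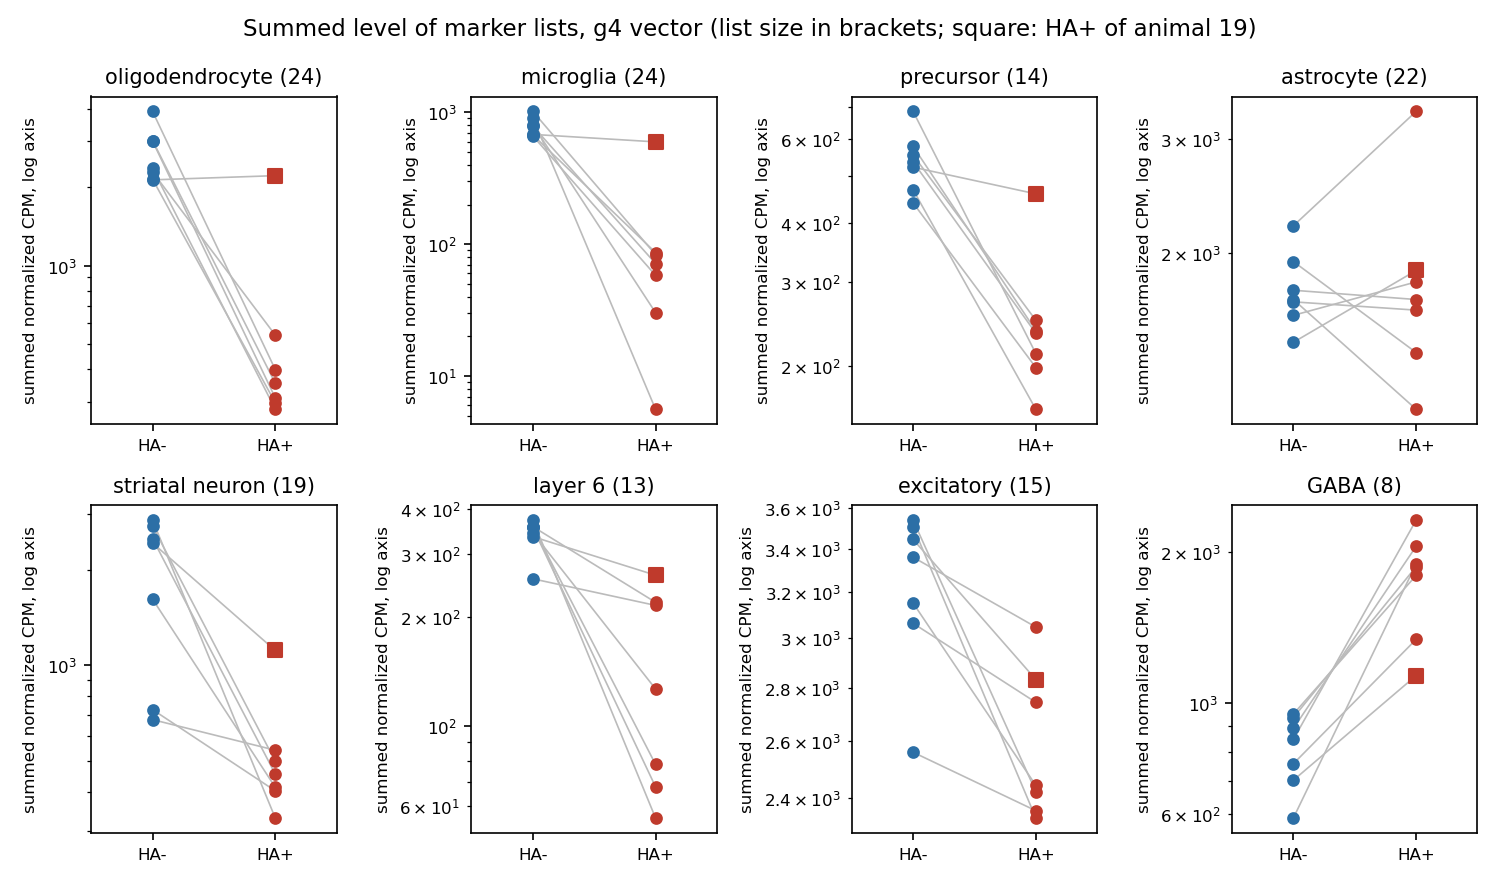
Summed normalized CPM of 8 marker lists (log axes) in HA-negative (blue) and HA-positive (red) libraries of the g4 vector, with a grey line joining the libraries of an animal and a square for the HA-positive library of animal 19. The square lies near the HA-negative libraries in the oligodendrocyte and microglia panels, at 2214 and 597 CPM, while the other 6 HA-positive libraries lie between 281 and 540 CPM and between 5.6 and 86.5 CPM.

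Of 6264 genes with enough counts, 401 passed a Benjamini-Hochberg adjusted p of 0.05 in edgeR's quasi-likelihood test and are termed called (6.4%). Of these, 208 were higher (3.32%) and 193 lower (3.08%) in HA-positive nuclei. Without the HA-positive library of animal 19, 6371 genes were tested and 508 called (7.97%), with 244 higher (3.83%) and 264 lower (4.14%), and 384 of the 401 genes were called in both fits. The median log2 fold change of all tested genes was 0.01. Genes of inhibitory interneurons made up many of the largest rises, and genes of oligodendrocytes, microglia, oligodendrocyte precursors and striatal projection neurons many of the largest falls. The gene lists used for this description held 41 of the 208 higher and 44 of the 193 lower genes. Each count of called list members below stands beside 3.32% of all tested genes higher and 3.08% lower.

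Of the miR-124 loci, the hairpin gene Mir124a-2 and its host transcript Mir124-2hg stood higher in HA-positive nuclei. Mir124a-2 lies on chromosome 3 at 17795662 to 17795770 (GRCm38), on the same strand as Mir124-2hg, and 27 of its 109 bases fall in an annotated exon of the host at 17795744 to 17799587 while the rest is intronic. It had 57 counts in HA-positive libraries, present in 6 of 7, and 0 counts in the 7 HA-negative ones. By animal from 17 to 23, the HA-positive counts were 0, 1, 4, 30, 17, 2 and 3, so that animals 20 and 21 held most of them and animal 17 none. Set against a floor of 3 counts over the HA-negative group, the hairpin was at least 19.3-fold higher, and its mean was 13.4 ± 18.3 CPM (SD, n = 7) against 0 (exact two-sided permutation test over 3432 splits, p 0.00466, and 0.014 adjusted over the 3 quantities tested this way). Without the HA-positive library of animal 20 the mean difference was 7.18 CPM (p 0.00466), and flipping signs within animals gave an exact p of 0.0312. All 14 libraries of the empty vector held 0 counts of this hairpin. The other hairpins, Mir124a-1 and Mir124a-3, held 0 counts in all 14 libraries, which at this depth does not show that they are absent.

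Mir124-2hg (chromosome 3, 17789921 to 17808970) ranged from 79.1 to 156 CPM with a median of 143 in HA-positive libraries, and from 26.2 to 49.8 with a median of 40.6 in HA-negative ones. The lowest HA-positive library, of animal 23, lay above the highest HA-negative one. The difference was 1.61 ± 0.21 on the log2 scale (SE, adjusted p 3.11e-06 by edgeR). With the empty vector the same transcript had a log2 fold change of 1.07 ± 0.56 that did not pass (adjusted p 0.318). The difference between vectors was 0.55 ± 0.61 and was not called (adjusted p 0.997 by edgeR). Mir124a-1hg, the host of Mir124a-1, ranged from 55.5 to 150.1 CPM in HA-positive and 72 to 118 CPM in HA-negative libraries, with a log2 fold change of 0.11 ± 0.21 (adjusted p 0.856) that became -0.049 without the library of animal 19. The strand and counting rule behind the table is not given in the sources used here, so reads of the hairpin and of its host could be divided either way.

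The enzymes and transporters of GABA were higher in HA-positive nuclei: 5 of 7 tested members of this list rose and 0 fell (median log2 fold change 0.84, and 0.01 over all genes). Gad1, which makes most GABA in the cell body, ranged from 409 to 912 CPM (median 593) in HA-positive libraries and from 128 to 273 (median 193) in HA-negative ones. The fractions did not overlap, and the lowest HA-positive value was that of animal 19. Its log2 fold change was 1.68 ± 0.19 (SE, adjusted p 4.5e-06). Gad2, the enzyme isoform of nerve terminals, had 0.66 ± 0.16 (adjusted p 0.00731), Slc32a1, the transporter that loads GABA into vesicles, 1.08 ± 0.23 (0.00283), and Abat, which breaks GABA down, 0.84 ± 0.17 (0.0017).

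Transcription factors of the interneuron lineage moved the same way, with 4 of 7 tested members higher and 0 lower (median 1.07). Satb1, which matures interneurons of the medial ganglionic eminence, ranged from 160.6 to 285.5 CPM (median 267) in HA-positive and from 96.0 to 144 CPM (median 119) in HA-negative libraries. The lowest HA-positive library was that of animal 19, and the fractions did not overlap. Its log2 fold change was 1.07 ± 0.15 (adjusted p 1.12e-05). Sox6, which acts with Satb1 in this lineage, rose by 1.08 ± 0.34 (adjusted p 0.0464), and its call was lost in 10 of the 14 fits that left out 1 library (adjusted p up to 0.195). Dlx1as, antisense to the interneuron factor gene Dlx1, had 2.11 ± 0.53 (adjusted p 0.0124). Dlx1 itself was not called (0.74 ± 0.48, adjusted p 0.472) and was higher in 5 of 7 animals. Without a stated strand setting the reads of Dlx1as and Dlx1 cannot be told apart.

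Neuropeptide genes of interneurons held the largest rises. Of 9 tested neuropeptide genes 5 were higher and 0 lower (median 1.33), and of 7 tested somatostatin interneuron markers 5 were higher and 0 lower (median 1.65). Sst, the somatostatin gene, ranged from 247 to 492 CPM (median 356) in HA-positive and from 39.2 to 131 CPM (median 73.7) in HA-negative libraries. No HA-positive library came near the HA-negative range. The log2 fold change was 2.10 ± 0.19 (SE, adjusted p 1.05e-08), and 2.18 without the library of animal 19. Npy, the neuropeptide Y gene, ranged from 111 to 226 CPM (median 149) against 22.5 to 52.4 CPM (median 44.6), also without overlap, with a log2 fold change of 1.97 ± 0.21 (adjusted p 7.46e-08). Cort, the cortistatin gene, whose product resembles somatostatin, ranged from 14.8 to 33.6 CPM (median 23.8) against 0 to 16.4 CPM (median 1.72). Only the HA-negative library of animal 18 reached into the HA-positive range, and the log2 fold change was 3.12 ± 0.60 (adjusted p 0.000861). Without the library of animal 19 Cort no longer had enough counts to be tested. Vip, the marker of another interneuron class, had 64.2 ± 15.7 against 25.5 ± 8.16 CPM (SD, n = 7; log2 fold change 1.32 ± 0.28, adjusted p 0.00211) and did not overlap.

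The promoters of Sst and Cort are shown because both genes move together and both hold a motif known from neuropeptide or homeobox-controlled genes. They run from 250 bases before to 50 bases after the RefSeq start in GRCm38.p6 and are read 5′ to 3′ on the minus strand. Capitals mark TGACGTCA, the cAMP response element, in Sst (chr16:23890795-23891094), and TAATTA, a core bound by homeodomain proteins, in Cort (chr4:149126714-149127013). Both motifs read the same on either strand and do not overlap each other.
Sst: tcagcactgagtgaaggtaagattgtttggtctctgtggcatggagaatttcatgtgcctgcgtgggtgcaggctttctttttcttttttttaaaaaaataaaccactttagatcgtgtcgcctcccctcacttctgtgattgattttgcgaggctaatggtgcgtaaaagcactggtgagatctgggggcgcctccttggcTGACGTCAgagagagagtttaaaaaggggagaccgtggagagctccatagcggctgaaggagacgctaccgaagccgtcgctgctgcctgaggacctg
Cort: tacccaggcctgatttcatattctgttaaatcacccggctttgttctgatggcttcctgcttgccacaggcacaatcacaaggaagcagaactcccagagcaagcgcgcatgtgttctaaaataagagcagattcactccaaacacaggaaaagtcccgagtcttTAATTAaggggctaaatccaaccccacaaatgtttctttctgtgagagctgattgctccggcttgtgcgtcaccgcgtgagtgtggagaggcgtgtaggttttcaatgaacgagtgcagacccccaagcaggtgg

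The element in Sst begins 48 bases before the start. The promoter windows of Npy, Vip and Pvalb held neither motif in these exact letters. That of Vip held TGACGTCT, which differs from TGACGTCA in the last letter, and near matches were not counted. TGACGTCA was found in 588 of 32851 promoters of this length (1.79%), in 203 of the 4851 tested genes with a promoter entry (4.18%), in 9 of 147 genes called higher (6.12%) and in 1 of 143 called lower (0.699%). TAATTA was found in 5.29% of all promoters, in 3.17% of tested genes, in 4.76% of genes called higher and in 2.8% of genes called lower. A gene was counted once if any of its promoters held the motif, so shares of genes and of promoters are unlike measures. These are counts of letters and say nothing of binding.

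**Figure D2:**
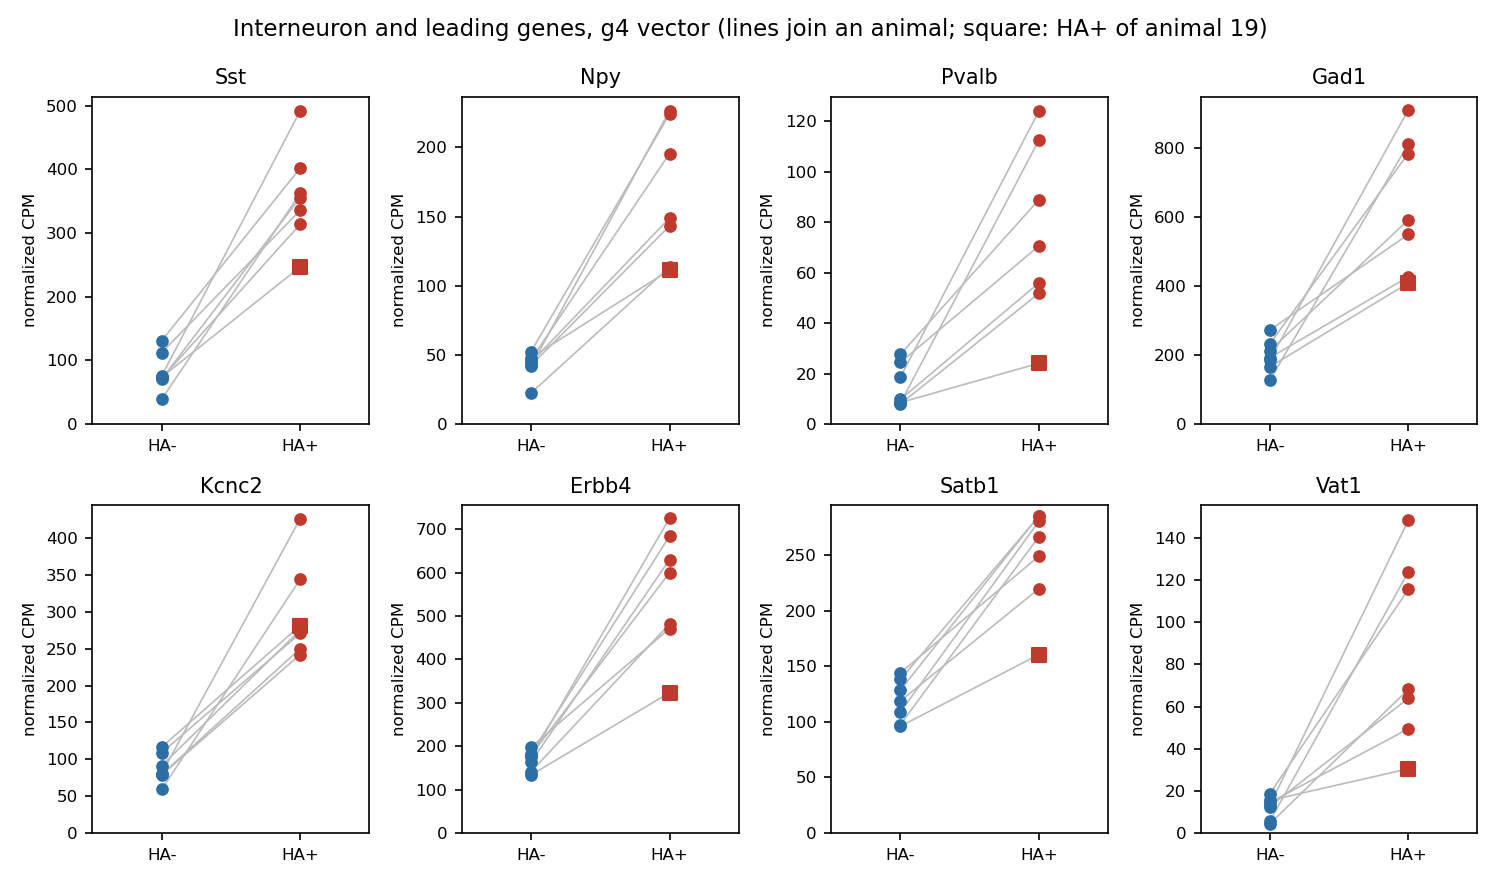
Normalized CPM of 8 genes in HA-negative (blue) and HA-positive (red) libraries of the g4 vector, with a grey line joining the libraries of an animal and a square for the HA-positive library of animal 19. Every line rises, and the square is the lowest HA-positive point for Sst (247 CPM), Npy (111 CPM) and Gad1 (409 CPM).

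Markers of parvalbumin interneurons, the fast-spiking class, rose as well: 7 of 11 tested members were higher and 0 lower (median 1.21). Pvalb, a calcium buffer, ranged from 24.1 to 124 CPM (median 70.7) in HA-positive and from 8.03 to 27.7 CPM (median 9.83) in HA-negative libraries. The HA-positive library of animal 19 was the lowest of its fraction and was the 1 that fell inside the HA-negative range. The log2 fold change was 2.30 ± 0.36 (adjusted p 5.15e-05). Kcnc1 and Kcnc2, potassium channels of the Kv3 family that end action potentials quickly, had log2 fold changes of 1.74 ± 0.24 (adjusted p 0.000148) and 1.75 ± 0.16 (2.32e-09), and neither overlapped between fractions. Syt2, the calcium sensor of fast synapses, had 2.03 ± 0.27 (4.76e-06), Vamp1, a vesicle fusion protein, 1.21 ± 0.24 (0.0014), and Nefh, the heavy neurofilament, 1.71 ± 0.38 (0.00497). Scn4b, a sodium channel subunit on this list and also abundant in striatum, went the other way with -2.20 ± 0.63 (adjusted p 0.0653), and was called with the animal as a block (0.000119) and without the library of animal 19 (0.0117).

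Erbb4, the neuregulin receptor of interneurons, was among the clearest differences, with 323 to 726 CPM in HA-positive and 134 to 198 CPM in HA-negative libraries (log2 fold change 1.73 ± 0.15, adjusted p 1.04e-09). The fractions did not overlap, and the lowest HA-positive value was again that of animal 19. Of 8 tested markers of interneurons from the caudal ganglionic eminence, 1 was called higher (Vip, 12.5%, beside 3.32% of all genes). The list median was 0.41, and 7 of the 8 had a fold change above 0. The summed level of all 16 list members was higher in HA-positive nuclei in 7 of 7 animals, with ranges that overlapped. Adarb2, on this list, had 49.5 ± 20.9 against 35 ± 10.7 CPM (SD, n = 7; adjusted p 0.444). Reln, an extracellular signal of layer 1 and of several interneurons, is not on it and had 166 ± 28.3 against 144 ± 42.9 CPM (adjusted p 0.658). Whether the caudal eminence list differed from the parvalbumin and somatostatin lists was not tested.

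Several of the largest rises lay outside these lists. Vat1, a vesicle membrane protein gene, ranged from 30.4 to 148 CPM (median 68.1) in HA-positive and from 4.32 to 18.7 CPM (median 13.1) in HA-negative libraries. No HA-positive library overlapped the HA-negative range, and the log2 fold change was 2.81 ± 0.36 (adjusted p 2.24e-06). Nek7, a protein kinase gene, ranged from 59.8 to 151 CPM against 14.4 to 36.0 CPM (2.39 ± 0.27, adjusted p 2.05e-07). Btbd11 (2.09 ± 0.26), the Golgi mannosidase gene Man1c1 (2.12 ± 0.33), Minar1 (2.73 ± 0.47), the phosphoinositide phosphatase gene Inpp5j (2.06 ± 0.42) and Lancl3 (2.11 ± 0.53) rose too, with adjusted p-values from 1.09e-06 to 0.0137. The calls of Inpp5j and Lancl3 were not made by limma voom (adjusted p 0.11 and 0.504). Oprd1, the delta opioid receptor, was the 1 tested opioid receptor of 4 on the list, at 30.4 to 120.4 CPM in HA-positive and 3.69 to 24.2 CPM in HA-negative libraries (2.33 ± 0.38, adjusted p 9.47e-05).

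Ion channel genes did not move as one group, and their counts stand beside 3.32% of all genes called higher and 3.08% lower. Of 11 tested potassium channel genes of the Kv3 and Kv1 families 4 rose and 1 fell (median 0.51). Besides Kcnc1 and Kcnc2, the axonal channel gene Kcna2 rose by 0.51 ± 0.12 (adjusted p 0.00901) and its subunit gene Kcnab2 by 0.64 ± 0.19 (0.0316), whose call was lost in 6 of 14 fits without 1 library, while Kcna4 fell by 1.48 ± 0.39 (0.0172). Of 8 tested sodium channel genes, Scn1a, the subunit of interneuron axons, rose by 0.97 ± 0.13 (4.5e-06) and Scn3a and Scn3b fell by 0.79 ± 0.23 (0.034, lost in 11 of 14 fits without 1 library) and 0.89 ± 0.22 (0.0111). Scn2a, the subunit abundant in excitatory neurons, had -0.35 ± 0.12 (0.0661). It was called without the library of animal 19 (-0.42, adjusted p 0.015), which with Scn4b brought the lower sodium channel genes to 4. The Kv7 gene Kcnq3 rose by 0.51 ± 0.11 (0.00211), and the calcium channel gene Cacna1e fell by 0.82 ± 0.14 (0.000135).

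Among synaptic genes the 2 complexins, which clamp and trigger vesicle fusion, moved in opposite directions. Cplx1 ranged from 277 to 548 CPM (median 358) in HA-positive and from 118 to 233 CPM (median 134) in HA-negative libraries, while Cplx2 ranged from 210.0 to 358 CPM (median 290.2) against 371 to 536 CPM (median 484). Neither gene overlapped between fractions, and the log2 fold changes were 1.48 ± 0.17 (adjusted p 4.46e-07) and -0.63 ± 0.13 (0.00138). Of 18 tested presynaptic release genes 4 rose and 1 fell (median 0.15), and Syt1, the main calcium sensor, rose by 0.32 ± 0.09 (0.0257), a call lost in 8 of 14 fits without 1 library. Of 4 AMPA receptor subunits Gria1 (0.55 ± 0.13, adjusted p 0.00667) and Gria4 (0.72 ± 0.17, 0.00746) rose. Of 10 tested GABA-A receptor subunits 2 rose (20%, beside 3.32% of all genes), among them Gabrb2 (0.78 ± 0.15, 0.000861). Of 4 tested NMDA receptor subunits 1 rose (25%), Grin3a (1.29 ± 0.29, 0.00387). Among 10 tested genes of neurofilaments and the axon initial segment, Ank1 (1.71 ± 0.29) and the spectrin gene Sptb (0.89 ± 0.19) rose beside Nefh.

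Of 12 tested general markers of excitatory neurons 2 were lower (16.7%, beside 3.08% of all genes) and 0 higher, with a median of -0.28, and 3 of 12 were lower without the library of animal 19. Arpp21, a cAMP-regulated phosphoprotein gene, ranged from 168 to 212 CPM in HA-positive and from 265 to 419 CPM in HA-negative libraries, without overlap (-0.83 ± 0.13, adjusted p 5.87e-05). Ptk2b, a calcium-activated tyrosine kinase gene, ranged from 69.5 to 126 CPM against 159 to 238 CPM, also without overlap (-1.02 ± 0.16, 5.15e-05). The 2 most abundant tested members, Chn1 (-0.18 ± 0.11, adjusted p 0.423) and Nrgn (-0.22 ± 0.13, 0.417), were not called. The part of tissue outside the cortex in these falls was not tested. The summed level of the 15 markers was 2333 to 3048 CPM in HA-positive and 2558 to 3540 CPM in HA-negative libraries, so the fractions overlapped, while within animals the HA-positive library was the lower in 7 of 7.

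By cortical layer, the called falls were in the lists of deep-layer genes. The part of tissue outside the cortex in these falls was not tested. Of 5 tested layer 6 markers 3 were lower (60%, beside 3.08% of all genes, with a median of -1.18). Foxp2, a transcription factor gene of layer 6 neurons that striatal neurons also use, ranged from 0 to 32.5 CPM (median 4.17) against 26.2 to 69.1 CPM (median 64.1). The highest HA-positive value was that of animal 19, and the log2 fold change was -2.64 ± 0.51 (adjusted p 0.00195), or -3.99 without that library. Hs3st4 (-1.75 ± 0.45, 0.0143) and Tle4 (-0.93 ± 0.28, 0.0368) were the others, and the call of Tle4 was lost in 8 of 14 fits without 1 library. Of 8 tested layer 5 markers Bcl11b (-1.15 ± 0.28, 0.0104) and Crym (-1.78 ± 0.42, 0.00621) fell and Parm1 rose (0.89 ± 0.22, 0.00874). Bcl11b was at 16.4 CPM in the HA-negative library of animal 18, below the HA-positive range of 25.2 to 59.3 CPM. The HA-negative median was 117 CPM. Of 7 tested upper layer markers edgeR called 0 (median 0.18), with 2 at an unadjusted p under 0.05, 1 called by DESeq2 and 0 by limma voom. Without the library of animal 19, Cux2 (0.73, adjusted p 0.04997) and Calb1 (1.06, 0.00529) were higher, and Calb1 also passed with the animal as a block (0.0484), where over all libraries it had 0.90 ± 0.33 (0.132). Summed layer 6 markers were 55.5 to 220 CPM in 6 HA-positive libraries, 261 CPM in that of animal 19, and 256 to 372 CPM in HA-negative ones.

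Genes of striatal projection neurons fell together: 11 of 14 tested members were lower and 0 higher (median -1.86), and 13 of 14 without the library of animal 19 (median -2.17). Drd1, a dopamine receptor gene, ranged from 5.10 to 24.1 CPM (median 9.73) in HA-positive and from 16.4 to 100.3 CPM (median 59.7) in HA-negative libraries. The fractions overlapped through the HA-negative library of animal 18, the lowest of its fraction, and the HA-positive library of animal 19 was the highest of its own. The log2 fold change was -2.18 ± 0.37 (adjusted p 0.000175). Ppp1r1b, the dopamine signalling protein DARPP-32, had -2.94 ± 0.55 (0.00161), Rgs9, a regulator of G protein signals, -2.45 ± 0.66 (0.0465), Pde10a, a phosphodiesterase gene, -1.88 ± 0.46 (0.0293), and Foxp1 -1.13 ± 0.22 (0.00195). The calls of Rgs9 and Pde10a were lost in 11 and 10 of the 14 fits that left out 1 library, with adjusted p-values up to 0.104, but not in the fit without that of animal 19. The HA-negative libraries differed among themselves. The summed level of the list was 726 CPM in animal 17 and 675 CPM in animal 18 against 1617 to 2867 CPM in the other 5, while HA-positive libraries held 331 to 540.5 CPM, and 1114 CPM in animal 19. The part of tissue outside the cortex in these levels was not tested.

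Oligodendrocyte genes were lower, and by how much depended on the library of animal 19. With it, 11 of 16 tested members fell and 0 rose (median -2.31). Without it, 17 of 18 fell (median -3.84). Mal, a myelin lipid raft gene, ranged from 3.40 to 19.5 CPM in 6 HA-positive libraries, reached 142 CPM in that of animal 19, and ranged from 132 to 302 CPM in HA-negative libraries. The library of animal 19 was the 1 HA-positive library inside the HA-negative range. The log2 fold change of Mal went from -2.63 ± 0.65 to -4.32 ± 0.31 without it, that of Cldn11, which seals the myelin sheath, from -2.70 to -4.69, Trf, the iron carrier transferrin, from -2.54 to -4.12, and Ermn, a cytoskeletal gene of myelin, from -2.55 to -3.71. With the library of animal 19 these 4 had adjusted p-values from 0.00941 to 0.0374, and with the animal as a block Mal and Trf did not pass (0.0586 and 0.0584). The calls of Cldn11, Trf and Mal were lost in 11, 13 and 9 of 14 fits without 1 library, with adjusted p-values up to 0.082, though not in the fit without that of animal 19. Gjc3, a gap junction gene of oligodendrocytes named here after its values were seen, had 0 counts in the 6 HA-positive libraries, 29 in that of animal 19 and 135 in HA-negative libraries, at least 33.5-fold lower in the 6 than in HA-negative ones against a floor of 3 counts over the group.

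Microglia genes showed the same dependence. With all libraries 7 of 10 tested members fell and 0 rose (median -2.52), and without the library of animal 19 all 10 tested members fell (median -4.84). P2ry12, the receptor by which microglia sense released nucleotides, ranged from 0 to 4.94 CPM in 6 HA-positive libraries, was at 26.2 CPM in that of animal 19 and ranged from 48.0 to 89.3 CPM in HA-negative ones (-3.22 ± 0.54, adjusted p 0.000524, and -4.88 without it). Gpr34 (-3.23 to -6.04), P2ry13 (-2.70 to -5.50), Fcrls (-2.53 to -5.64) and the lysosomal protease gene Ctss (-2.39 to -3.53, lost in 5 of 14 fits without 1 other library) fell in both fits. Csf1r, the growth factor receptor that microglia depend on, was at 0 to 6.95 CPM in the 6 libraries and 110.2 CPM in that of animal 19, and was called without it (-4.70, adjusted p 8.31e-12) but not with it (0.122). Cx3cr1, the fractalkine receptor gene, also named after its values were seen, held 0 counts in the 6 libraries, 48 in that of animal 19 and 237 in HA-negative libraries, at least 58.9-fold lower in the 6. Mpeg1, a pore protein gene of macrophages outside the list, had -2.64 ± 0.65 (0.0109).

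Oligodendrocyte precursor genes fell in part. Of 5 tested members 2 were lower (median -1.11), and 4 of 6 without the library of animal 19 (median -2.08). Pdgfra, the growth factor receptor that defines precursors, ranged from 0 to 8.34 CPM in the 6 libraries, 22 CPM in that of animal 19 and 44.6 to 72.1 CPM in HA-negative ones (-3.05 ± 0.55, adjusted p 0.000779). Vcan, a matrix proteoglycan gene, had -2.51 ± 0.65 (0.0311), a call lost in 5 of 14 fits without 1 library. Of 12 tested astrocyte genes edgeR called 0 (median 0.16), with 0 at an unadjusted p under 0.05 and 0 called by DESeq2 or limma voom. Slc1a2, the main glutamate transporter, ranged from 716 to 1680 CPM in HA-positive and from 881 to 1296 CPM in HA-negative libraries (-0.05 ± 0.16, adjusted p 0.908). The summed level of 22 astrocyte markers was 1142 to 1876 CPM in 6 HA-positive libraries, 3314 CPM in animal 21, and 1451 to 2201 CPM in HA-negative ones. Of the endothelial, mural and fibroblast, lymphocyte and erythrocyte lists 0 members had enough counts to be tested.

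**Figure D3:**
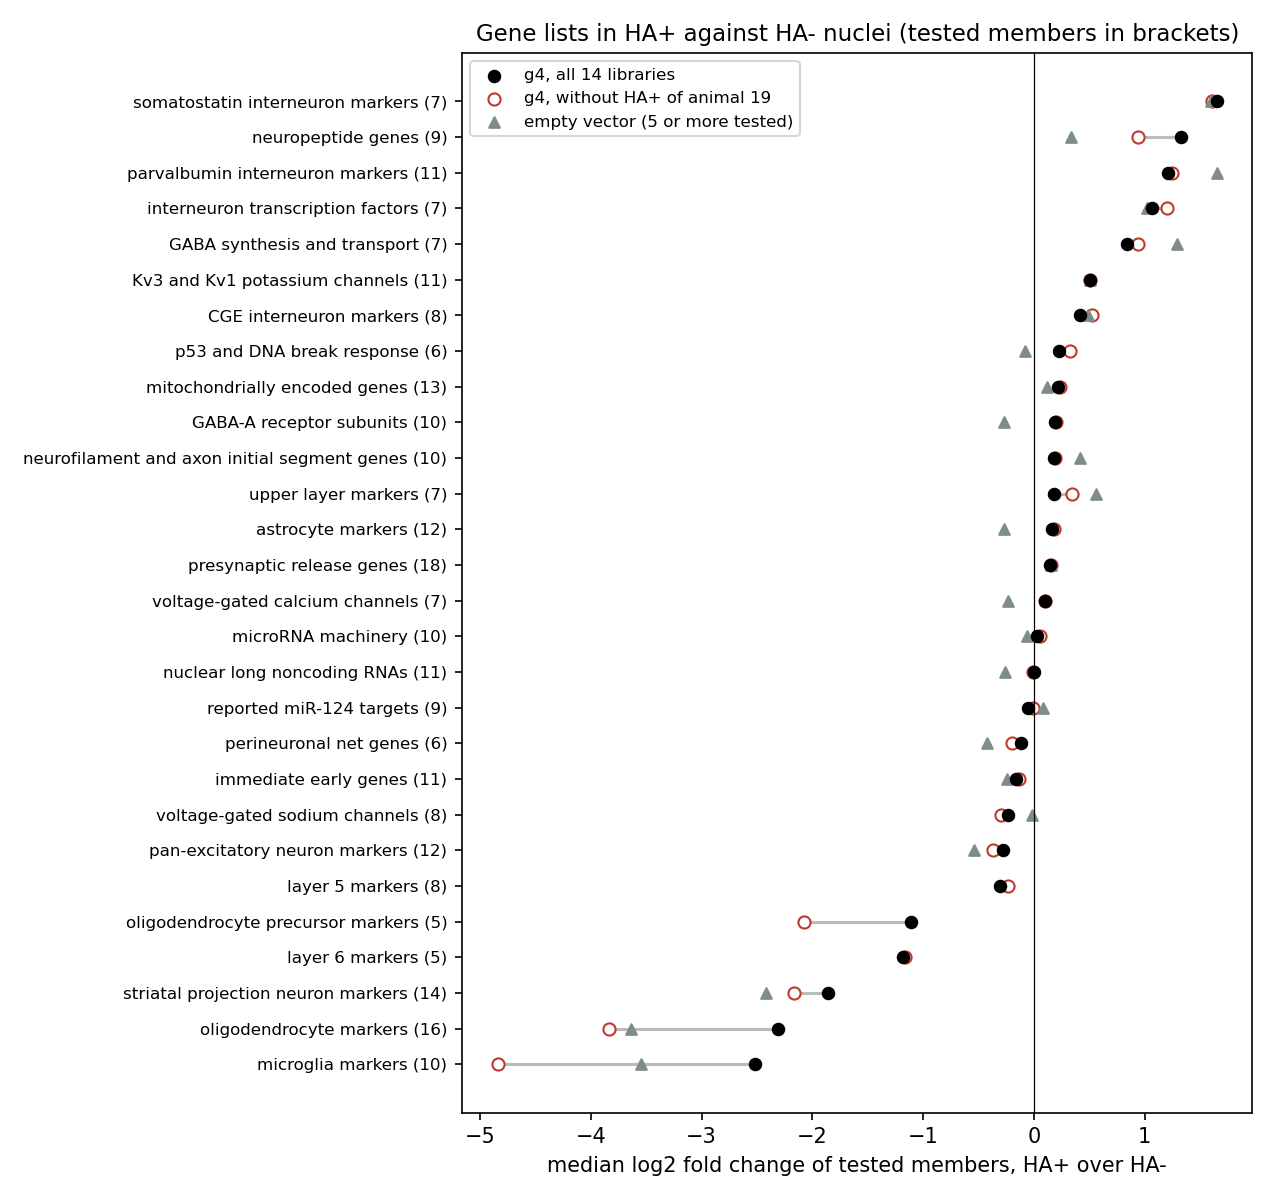
Median log2 fold change of the tested members of each list with at least 5, HA-positive over HA-negative nuclei, for the g4 vector with all 14 libraries (black), without the HA-positive library of animal 19 (open red) and for the empty vector (grey triangles). The members tested can differ between the fits. Interneuron lists lie right of 0, from 0.41 to 1.65. The glial and striatal medians at the bottom move left without that library, from -2.52 to -4.84 for microglia.

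Other lists held few or no calls beside 6.4% of all genes. Of 13 mitochondrially encoded genes (median 0.22), 11 immediate early genes (median -0.16), 10 genes of microRNA processing and silencing (median 0.03), 11 nuclear long noncoding RNAs (median 0), 9 reported miR-124 targets (median -0.06) and 6 genes of the p53 and DNA break response (median 0.23), 0 were called in either direction by edgeR. At an unadjusted p under 0.05 these lists held 4, 3, 0, 1, 2 and 3 genes in that order. DESeq2 called 0 in each, and limma voom called 1 each among immediate early genes, miR-124 targets and p53 genes. In the last list Ccng1, a cyclin gene induced by p53, had 0.80 ± 0.28 (adjusted p 0.0912) and was called without the library of animal 19 (0.0394). B2m, which encodes beta-2 microglobulin of the class I complex and was the 1 tested gene of its list, ranged from 16.8 to 46.9 CPM in HA-positive and from 35.4 to 75.5 CPM in HA-negative libraries, lower in 7 of 7 animals (-0.93 ± 0.28, 0.0374). The call was lost in 9 of 14 fits without 1 library.

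Small nucleolar RNAs (snoRNAs), which guide chemical modification of other RNAs, held 5 genes called higher and 1 lower of 85 tested, beside 3.32% and 3.08% of all genes. The 5 were copies of 1 C/D box snoRNA in an array on the minus strand of chromosome 7 between Ube3a and Snrpn, a region expressed from 1 parental allele in neurons. They were named after their values were seen. Their 79-base sequences from GENCODE vM21 (GRCm38) are given because the copies are nearly the same, with the C box TGATGA and the D box CTGA in capitals, 5′ to 3′.
Gm25156: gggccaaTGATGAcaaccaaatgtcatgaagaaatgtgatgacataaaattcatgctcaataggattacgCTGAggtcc
Gm24862: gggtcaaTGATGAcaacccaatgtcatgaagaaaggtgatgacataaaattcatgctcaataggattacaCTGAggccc
Gm25449: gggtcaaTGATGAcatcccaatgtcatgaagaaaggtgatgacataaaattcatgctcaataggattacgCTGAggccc
Gm26390: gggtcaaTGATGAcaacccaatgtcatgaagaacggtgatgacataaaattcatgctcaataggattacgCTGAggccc
Gm25085: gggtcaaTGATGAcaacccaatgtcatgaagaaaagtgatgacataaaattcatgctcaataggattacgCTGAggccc

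The starts of these copies on chromosome 7 are 59353283, 59391690, 59419323, 59484948 and 59540870, and pairs of them share 93.7 to 97.5% of bases, so reads could be split between copies and no single copy's value is certain. Gm25156 ranged from 17.4 to 129 CPM (median 63.9) in HA-positive and from 1.85 to 40.3 CPM (median 18.6) in HA-negative libraries, with overlap (log2 fold change 1.63 ± 0.45, adjusted p 0.0305). The other 4 had 1.36 to 1.60 (adjusted p 0.0323 to 0.0377), and Gm25449, Gm26390 and Gm25085 did not pass with the animal as a block (0.121, 0.0722 and 0.0633). The annotation holds 131 copies in the table with at least 90% identity to Gm25156, of which 66 had counts and 21 were tested, all 21 of these with a fold change above 0 (median 1.28). Of the 64 other tested snoRNAs 49 were also above 0 (median 0.39). Of the 21 copies 11 were also tested with the empty vector, where edgeR called 0, 0 had an unadjusted p under 0.05 and the median was 0.34, and the difference between vectors was not tested for this group. Gm26390 did not have enough counts to be tested without the library of animal 19. Their summed level by animal, from 17 to 23, was 348, 1619, 743, 2432, 825, 2107 and 842 CPM in HA-positive and 306, 328, 206, 261, 961, 767 and 646 CPM in HA-negative libraries. It was higher in HA-positive nuclei in 6 of 7 animals, with animal 21 the exception, and the fractions overlapped. No test was run on this sum, since the copies were grouped after their values were seen. Snord17, a snoRNA of another locus, went the other way, from 272 to 535 CPM against 533 to 886 CPM (-0.81 ± 0.14, adjusted p 0.000232), lower in 7 of 7 animals though the ranges touched.

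**Figure D4:**
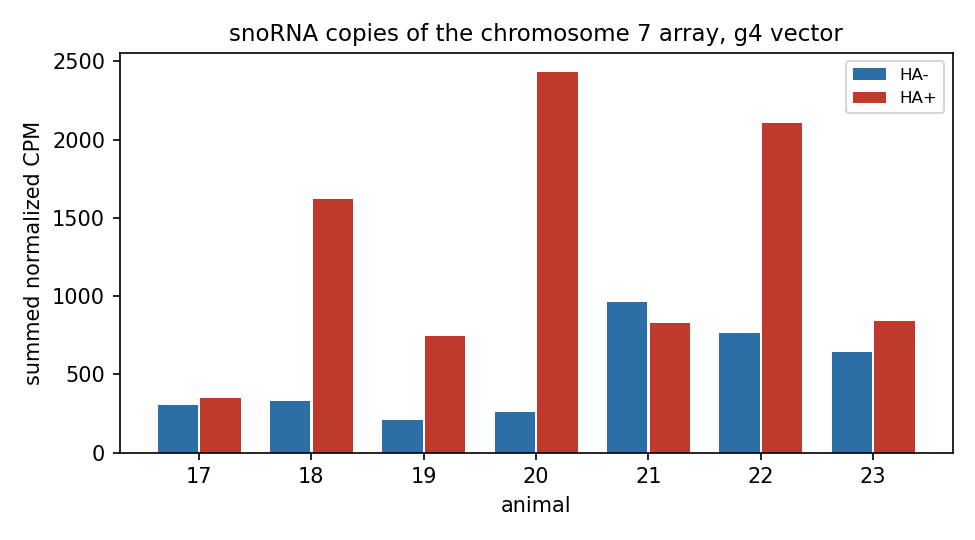
Summed normalized CPM of 131 annotated copies of the chromosome 7 snoRNA in each animal, HA-negative (blue) and HA-positive (red) libraries of the g4 vector. The HA-positive bar is the higher in 6 of 7 animals, reaching 2432 CPM in animal 20, and the lower in animal 21.

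The same sort was made in the left hemispheres with the empty vector, which shows what the fractions had in common without g4. There, 387 of 5538 genes were called (6.99%), with 191 higher (3.45%) and 196 lower (3.54%). Of the genes called with g4, 194 were also called with the empty vector, all in the same direction, which is 48.4% of the g4 calls and 50.1% of the empty ones. Of the 401 g4 calls, 41 were of genes not tested with the empty vector, and among the 360 that were tested the share was 53.9%. The vectors' libraries came from the same animals but share no library. By list, 8 of 10 tested parvalbumin markers and 5 of 6 GABA genes rose with the empty vector, and all 12 tested striatal genes, 12 of 13 oligodendrocyte genes and 5 of 6 microglia genes fell.

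Whether the fraction effect differed between vectors was tested in 1 model of all 28 libraries. Of 7197 genes edgeR called 0 (0%), with 357 at an unadjusted p under 0.05, and DESeq2 called 0 with 429. Oip5os1, a long noncoding RNA also called Cyrano, gave the smallest p: its log2 fold change was -0.24 ± 0.12 with g4 and 0.62 with the empty vector (adjusted p of the difference 0.286). Tns3 (-1.11 ± 0.42 with g4, adjusted p of the difference 0.627), the noncoding host transcript Mir99ahg (0.09 ± 0.41 with g4, 0.756), Ppp1r12a (0.26 ± 0.18 and -0.76) and Phactr1 (-0.22 ± 0.15 and -1.04, both 0.786) followed. Oprd1 had 2.33 with g4 and 0.81 with the empty vector, and Cplx2 -0.63 and -0.15, with adjusted p-values of the difference of 0.944 and 0.951. A p that misses the threshold does not show that the vectors act alike, and since vector and hemisphere coincide, they cannot be told apart here.

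**Figure D5:**
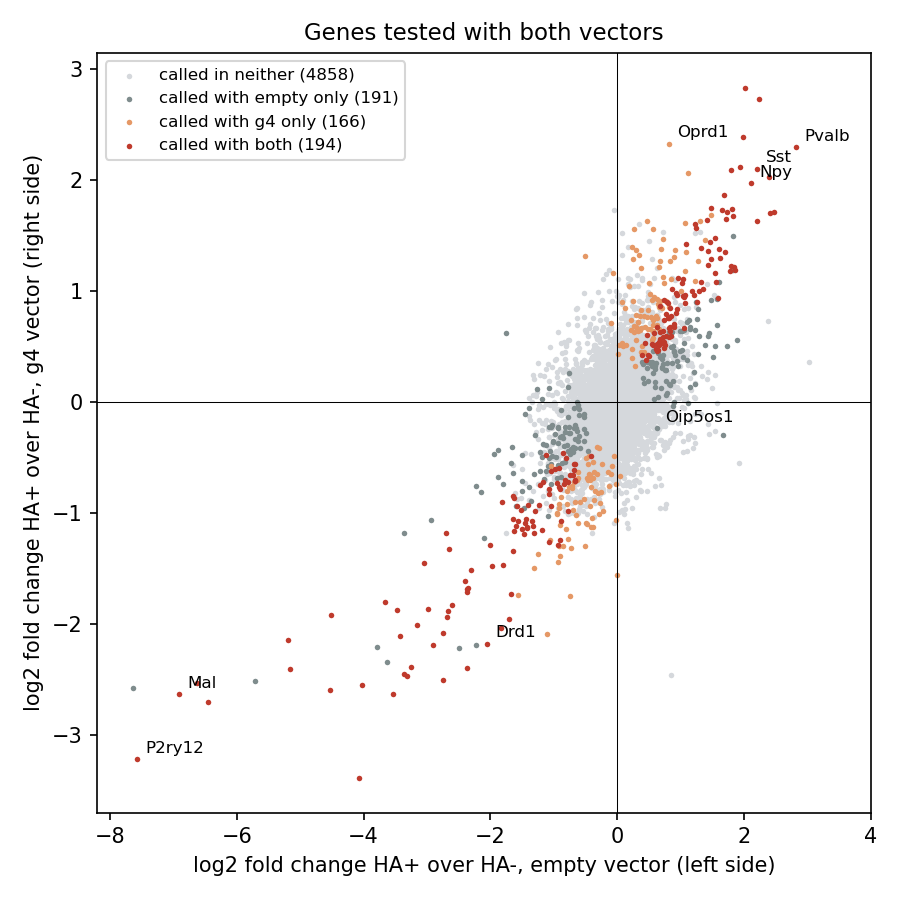
Log2 fold change of HA-positive over HA-negative nuclei with the empty vector (left hemisphere, x axis) and the g4 vector (right hemisphere, y axis) for 5409 genes tested with both, coloured by which comparison called them. The 194 genes called with both lie in the lower left and upper right. Glial genes such as Mal and P2ry12 reach further down with the empty vector here, where g4 values include the HA-positive library of animal 19. Without that library, list medians with g4 were -4.84 for microglia (10 tested) and -3.84 for oligodendrocyte genes (18 tested). With the empty vector they were -3.55 (6 tested) and -3.64 (13 tested). These medians cover unlike sets of genes and do not rank the vectors. Gpr34 and Fcrls, at 0 CPM in HA-positive libraries of the empty vector, were not tested there.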

How the data were processed

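RNA of sorted nuclei was counted in 14 libraries of the g4 vector, 7 HA-positive and 7 HA-negative, 1 of each per animal. The authors deposited raw counts per gene, and a missing count was taken as 0. The build is GRCm38, per the submitters' processing notes, and no aligner, counter, strand or molecular identifier is given in the sources used here. Titles and column numbers differ for 3 animals, and descriptions tied samples to columns. Of the rows, 1 named no gene and was left out, and 41549 genes remained, 41474 of them in GENCODE vM21. Gene tests used edgeR 4.0.16 in R 4.3.3 (filterByExpr, TMM, robust quasi-likelihood, two-sided, no block), with Benjamini-Hochberg adjustment over all tested genes. All adjusted p-values of genes come from this test unless another is named. Fold changes are log2 ± SE, and CPM are scaled by TMM factors.

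Named genes were the miR-124 loci, the 15 called genes with the largest rise and the 15 with the largest fall, provided 6 or 7 animals had that direction and the higher group reached 5 CPM, up to 4 called members per direction and the 2 most abundant of each list, any tested member of short lists, and the 5 smallest p-values of the vector difference. The comparison, lists and rules were chosen with earlier results of these data known. Both fractions of an animal share its number in the titles. Deviations of same-animal libraries from their group means correlated at -0.09 to 0.13. Counting error, which shallow libraries have most of, limits genes with few counts. Alternatives were the animal as a block, DESeq2 1.42.0, limma 3.58.1 voom, other scaling and filters, and leaving out each library. The edgeR script was tested on simulated data. Some genes are not reported here.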

Additional observations from a re-analysis of the deposited data

Results flagged for a closer look

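In groups of 7 libraries, a library was singled out when its gap to the nearest other was above Dixon's 95% limit for the range, which chance does for about 1 group in 20. The HA-positive library of animal 19 was the highest of its group for the summed markers of oligodendrocytes (2214 CPM, next 540.5), microglia (597 CPM, next 86.5), oligodendrocyte precursors (460 CPM, next 250) and striatal projection neurons (1114 CPM, next 540.5).

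It was also the highest for 21 of the 90 genes tested this way. Of oligodendrocyte genes these were Trf at 186 CPM, Mal at 142, Cldn11 at 65.1, Ermn at 42, Tmem88b at 32.5 and Ndrg1 at 30.4 CPM. Of microglia and precursor genes they were Csf1r at 110.2, Ctss at 75.6, P2ry12 at 26.2, Fcrls at 22, Mpeg1 at 17.9, Gpr34 and P2ry13 each at 16.8, Vcan at 40.9 and Pdgfra at 22 CPM. Of striatal and deep-layer genes they were Pde10a at 268, Foxp1 at 175, Scn4b at 73.5, Rgs9 at 65.1, Foxp2 at 32.5 and Ppp1r1b at 23.1 CPM. The part of RNA from other nuclei in this library was not tested.

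Among the other HA-positive libraries, animal 23 was lowest for summed parvalbumin markers (877 CPM, next 1244), and animal 21 was highest for summed astrocyte markers (3314 CPM, next 1876). Animal 18 was highest for Minar1 (106 CPM) and Gabrb2 (375 CPM), and animal 22 for Ppp1r12a (310.3 CPM). Among HA-negative libraries, animal 18 was lowest for summed layer 6 markers (256 CPM, next 334) and highest for Cort (16.4 CPM), Syt1 (1343 CPM) and Tnr (370.1 CPM). Cplx1 was highest in animal 19 (233 CPM), Grin3a in animal 22 (67.7 CPM), Nxph1 in animal 20 (63.4 CPM) and Vcan in animal 21 (113 CPM), and Npy was lowest in animal 23 (22.5 CPM).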

How the results depend on the processing

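Counts of genes called higher and lower were 202 and 189 with the animal as a block (353 of 401 calls shared), 230 and 226 by DESeq2, 181 and 177 by limma voom, and 251 and 296 with no filter on low counts, where far more genes are tested. Leaving out 1 library gave 156 to 244 higher and 129 to 264 lower, highest without the HA-positive library of animal 19. Without that library 1 parvalbumin marker, 17 oligodendrocyte, 4 precursor, 4 sodium channel, 2 perineuronal net and 1 neuropeptide gene were lower, 2 upper layer genes and 1 p53 gene were higher, and medians were -2.08 for precursor and -4.84 for microglia genes. The animal as a block called 1 parvalbumin and 1 neuropeptide gene lower and 1 upper layer, 1 p53 and 1 mitochondrially encoded gene higher, and leaving out ribosomal RNA genes called 1 neuropeptide gene lower. Of 90 of the named genes, DESeq2 lost 0 calls and gained 3 and no filter lost 8 and gained 1. limma voom gained 2 and lost 7: Inpp5j, Lancl3, Bcl11b, Kcna4, Pde10a, Rgs9 and Sox6. Beyond the blocked values given in the report, the block changed no other call of a named gene. Mir124a-1hg (-0.049 without the library of animal 19, -0.066 with the block too, and -0.049 to 0.208 over libraries left out), Slc1a2 (-0.215 to 0.017) and Mir99ahg (-0.022 to 0.231), none called, changed sign. The difference in ribosomal RNA ranged from -0.51 to 3.31 percentage points over libraries left out, that in detected genes from -867 to -160, and that of Mir124a-2 from 7.18 to 15.7 CPM. The vectors' difference had 3 calls with no filter (Gm9833, Cldn11 and Gm49804). Gm9833 and Gm49804 held 36 and 45 counts over all 28 libraries. For Cldn11 that fit includes the g4 HA-positive library of animal 19, at 65.1 CPM with the next of its group at 9.88. The search for miR-124 seed sites was not run. Other causes of these shifts were not tested.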

Other observations

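In the 3 animals whose libraries held Xist throughout, it was lower in the HA-positive library of each: 1096, 646 and 655 CPM in animals 21, 22 and 23, against 1352, 995 and 870 CPM in their HA-negative libraries. This is a description of 3 animals, with no test.

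Haemoglobin and other erythrocyte genes, which had too few counts to be tested, summed to 358 and 370 CPM in the HA-positive libraries of animals 17 and 18, to 94.5 CPM in that of animal 19 and to at most 22.2 CPM in the other 4. The HA-negative libraries held 1.72 to 73.9 CPM.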
